A study of Homo sapiens with 24 samples.

Results

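Late after doxycycline, D425 cells carrying an inducible hairpin against OTX2 differed from control cells in a large part of the measured transcriptome. Many of the tested genes of neurons and of axon growth were higher. Many of those of the cell cycle, of amino acid supply and of photoreceptors were lower. The comparison uses the 6 arrays labelled shOTX2 at 48 and 96 h, from 3 time courses, and the 2 control arrays at the same times, which is 8 of the 24 arrays of the study. They were chosen by arm and time from the labels, with earlier results of these data known. Each hairpin array was set against the control array of its own time. D425 is an established human medulloblastoma line, grown here in MEM with fetal calf serum. The hairpin arm carries a doxycycline inducible shRNA against OTX2 and was run as 3 independent courses. The control arm was run as 1 course with the same sampling times, so it has 1 array at each time. Whether control cells carry a vector or an unrelated hairpin, and whether either arm is a single clone, is not given in the sources used here. Doxycycline was the inducer in both arms per the labels' protocols, and 0, 8, 16, 24, 48 and 96 h were sampled in each course. RNA was read on Affymetrix U133 Plus 2.0 arrays as MAS5 signal, a brightness value in which every array had been scaled to the same trimmed mean. Signals of different genes are not set against each other, because probe sets differ in how brightly they respond.

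OTX2 is a homeobox transcription factor that patterns the forebrain and midbrain and directs photoreceptor fate in the retina. It is overexpressed in many medulloblastomas, a cerebellar tumour of childhood, where it is known to sustain proliferation and to hold back neuronal differentiation. D425 is known for amplified MYC, a driver of ribosome production, amino acid use and growth.

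A direct comparison of the arms holds 3 components that add up for each gene, namely the difference that was already there early, the change in the hairpin arm and the change in the control arm. The difference at 0 and 8 h (3 arrays against 1 at each time) was therefore measured the same way and is given as the background. Differences are in log2(signal + 16), the mean of 48 and 96 h unless a time is named, with the standard error (SE) of a limma fit over all 24 arrays. They understate the change of dim genes. A gene is called where its Benjamini-Hochberg adjusted p over 13903 genes is under 0.05. The spread behind every SE comes from the hairpin courses alone. The control arrays have no replicate and are assumed to vary like the hairpin arrays. All p-values thus rest on the spread between hairpin arrays of the same time and not on the spread between control cultures. The main fit counts the arrays of a course as independent, although they deviated together (correlations of 0.157 to 0.556).

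The late difference was called for 5406 of 13903 genes (38.9%), of which 2495 were higher (17.9%) and 2911 lower (20.9%) in the hairpin arm. With the course as a random replicate block 4910 genes were called late. A call together with a change of at least 2-fold was seen for 878 genes upward (6.32%) and 776 downward (5.58%). The 6 hairpin signals all lay above both control signals for 2467 genes (17.7%) and all below for 2804 (20.2%). In the early difference 490 genes (3.52%) were called, 302 higher (2.17%) and 188 lower (1.35%). That count was 277 with the course as a random replicate block, and 2312, 72 and 202 without course 1, 2 and 3. Of the early calls 61.6% were higher, and 73.6% when the array medians were centred. The median difference over all genes was -0.05 late and -0.04 early, and the median SE was 0.191 in both. The test of the late minus the early difference called 3130 genes (22.5%), 1462 higher (10.5%) and 1668 lower (12%), with 4053, 1900 and 2258 called without course 1, 2 and 3.

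A measure of RNA quality differed between the courses. On the late arrays the ratio of the 3' to the 5' actin probe set, which rises as RNA degrades, was 1.311 to 1.346 in course 1, 1.818 to 2.196 in course 2, 1.895 to 2.018 in course 3 and 1.437 to 1.549 in the control. Course 1 and the control thus had the lower ratios. With this ratio as a covariate limma called 6249 genes late. The array medians of the late arrays ran from 17.6 to 20.6. Of the markers of blood and vessel cells, PTPRC (at most 18.2), CD14 (at most 2.4), CDH5 (at most 15.2) and VWF (at most 5.1) were at or near the bottom of the scale on all 8 late arrays. These genes were too dim to be tested, and 6 other such markers were tested. OTX2 and MYC, which mark this line, were at 3842 to 5357 and 2761 to 7807 on the late arrays. In RNA from whole cultures, fewer cells of a kind and less RNA per cell cannot be told apart.

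OTX2 itself was measured first. Its signals were 4083, 4374 and 4205 at 48 h and 3842, 4398 and 4324 at 96 h in courses 1, 2 and 3, against 4902 and 5357 in the control at 48 and 96 h. All 6 hairpin values lay below both control values, and the late difference was -0.29 ± 0.09 (adjusted p = 0.0148). The early difference was -0.22 (adjusted p = 0.207), and the late minus early difference was -0.07 (adjusted p = 0.774), so the gap between the arms was not shown to differ between early and late. The late call was lost after quantile normalization, without a mean-variance trend and without course 3, where the adjusted p was at most 0.215. Among the other OTX family members, CRX, the homeobox factor of photoreceptor precursors, read 568, 403 and 377 at 48 h and 379.8, 371 and 316 at 96 h against 132 and 274. CRX was higher late by 0.99 ± 0.20 (adjusted p = 7.34e-04), by 1.63 at 48 h and by 0.35 at 96 h, where it was not called. OTX1 was not called (-0.37).

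**Figure D1:**
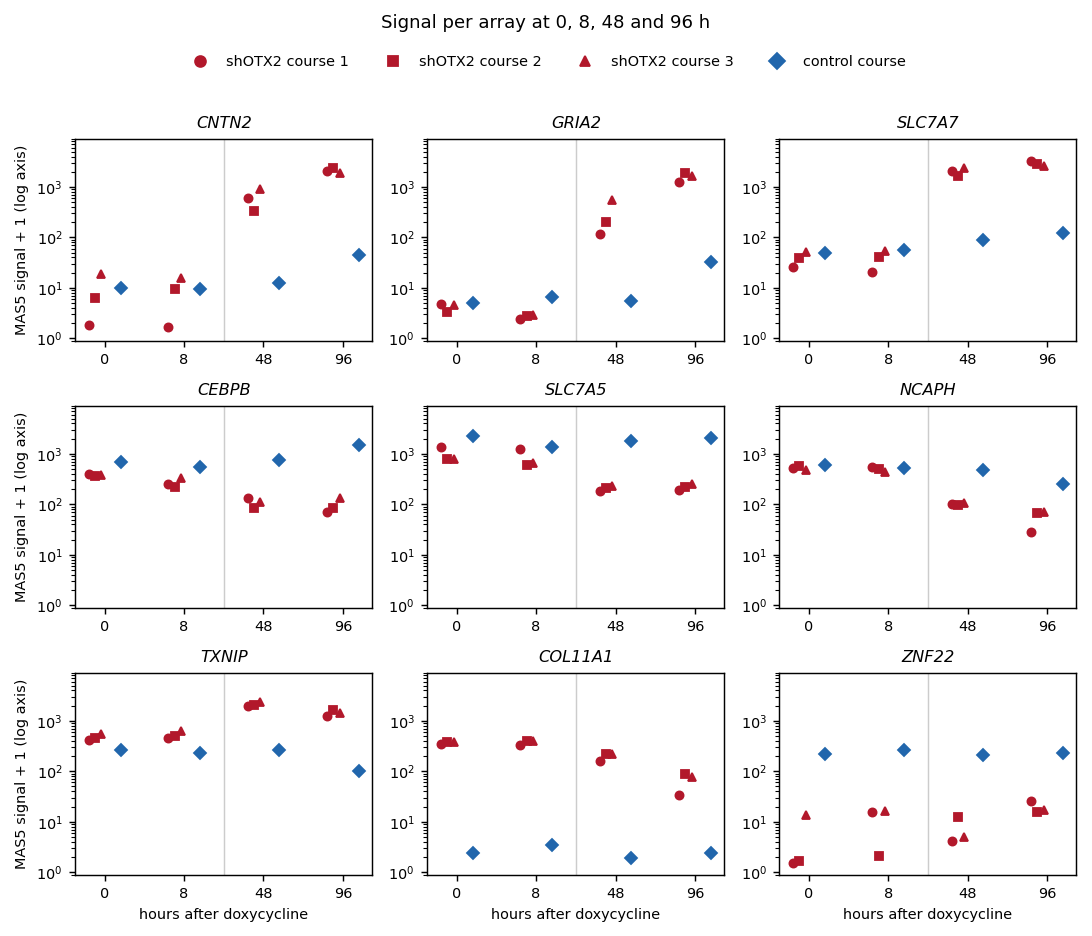
MAS5 signal plus 1 on a log axis for 9 genes at 0, 8, 48 and 96 h after doxycycline, 1 point per array, with hairpin courses 1 to 3 in red and the control course in blue. CNTN2, GRIA2 and SLC7A7 overlap with or lie near the control at 0 and 8 h and far above it at 48 and 96 h, CEBPB, SLC7A5 and NCAPH lie below the control at 48 and 96 h, and TXNIP, COL11A1 and ZNF22 differ between the arms already at 0 h.

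Among genes called both late and for the late minus early difference, with the same sign in all 6 matched differences, the 10 highest include several genes of neurons. CNTN2, an adhesion molecule of growing axons, read 606, 327 and 903 at 48 h and 2112, 2346 and 1916 at 96 h, against 11.2 and 43.6 in the control. The late difference was 4.79 ± 0.32 (adjusted p = 7.97e-09), and the early difference was -0.11. The 6 hairpin arrays were all far above the control, and those of 96 h were all above those of 48 h. GRIA2, an AMPA type glutamate receptor subunit, read 115, 204 and 548 at 48 h and 1244, 1874 and 1619 at 96 h against 4.6 and 32.1. Its difference was 4.33 ± 0.41, and at 48 h course 3 was well ahead of courses 1 and 2. MARCKS, an actin-binding protein kinase C substrate, read 1498, 1400 and 1597 at 48 h and 2941, 2483 and 2426 at 96 h against 46.6 and 165 and differed by 4.23 ± 0.29. The control read higher at 96 h than at 48 h, but stayed below each hairpin value. SRRM4, a splicing regulator of neuronal microexons, read 527, 617 and 809 at 48 h and 1419, 1357 and 1157 at 96 h against 47.2 and 86.0, a difference of 3.54 ± 0.29. ADGRG1, an adhesion receptor of cortical development, read 382, 290.0 and 362 at 48 h and 689, 459 and 496 at 96 h against 11.6 and 19.7, a difference of 3.83 ± 0.29. SSTR2, a somatostatin receptor, read 898, 619.9 and 976 at 48 h and 2607, 1641 and 1809 at 96 h against 67.1 and 63.8, a difference of 3.98 ± 0.27. In each of the last 3 genes the lowest hairpin value exceeded the higher control value several-fold.

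Not all of the leading genes are neuronal. SLC7A7, the light chain of a cationic amino acid exchanger, read 2075, 1616 and 2322 at 48 h and 3238, 2781 and 2608 at 96 h against 87.8 and 121, a difference of 4.33 ± 0.22. RUNX1T1, a transcriptional corepressor, read 174, 336 and 459 at 48 h and 535, 907 and 797 at 96 h against 15.4 and 11.6, a difference of 4.04 ± 0.41. LRRC10B and TMEM158 differed by 4.06 ± 0.24 and 3.83 ± 0.40. For these 4 genes and the 6 above, the adjusted p of the late difference ran up to 7.86e-07. Their calls for the late and for the late minus early difference were conditions of the choice and not further results. None of the 10 was called early, and the 10 kept their late call under all 14 alternatives.

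Among the 10 lowest genes by the same rule, 4 belong to amino acid supply and its regulation and are described with that list, and ERC2 and TTC12 are described with the synaptic and standing genes. SLC7A2, a cationic amino acid transporter, read 193, 144 and 174 at 48 h and 89.6, 163 and 190.4 at 96 h against 1049 and 1393, a difference of -2.84 ± 0.24. HKDC1, a hexokinase-like protein, read 13.7, 11.8 and 12.7 at 48 h and 7.3, 13.7 and 16.6 at 96 h against 94.6 and 309.5, a difference of -2.74 ± 0.27. GALNT14, an enzyme that starts O-linked glycosylation, read 3.6, 4.6 and 4.9 at 48 h and 25.8, 4.7 and 21.7 at 96 h against 197 and 169, a difference of -2.96 ± 0.45. No hairpin value of these 3 genes reached the lower control value. SLC60A1 differed by -3.05 ± 0.35. SLC7A7 and SLC7A2, which both carry cationic amino acids, thus differed in opposite directions.

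Genes of axon growth and the neuronal cytoskeleton were mostly higher. Of 49 listed genes 40 passed the filter on dim probe sets and were tested, and 25 were higher and 5 lower, against 17.9% and 20.9% of all genes, with a median difference of 0.63 late and -0.08 early. The medians were 0.65, 0.62 and 0.66 in courses 1, 2 and 3. The filter asked for a signal above the array median in at least 3 arrays. The 6 late hairpin arrays can meet it alone, and the 2 late control arrays cannot. The tested members of any dim list can thus be tilted toward higher in the hairpin arm, and how many passed in this way was not counted. DCX, a microtubule protein of migrating neurons, read 86.4, 157 and 561 at 48 h and 849, 1662 and 1612 at 96 h against 27.9 and 51.5, a difference of 3.30 ± 0.51. RTN1, a reticulon of neuroendocrine cells, read 75.6, 74.7 and 116 at 48 h and 325, 308 and 331 at 96 h against 11.1 and 2.5, a difference of 3.06 ± 0.20. L1CAM, an adhesion molecule of axons, differed by 2.02 and ELAVL2, a neuronal RNA-binding protein, by 2.04. The 5 lower members were CRMP1, NEFH, NSG1, TUBB2B and UCHL1. NEFH, the heavy neurofilament chain, read 803, 754 and 828 at 48 h and 681, 745 and 986 at 96 h against 1936 and 1567, a difference of -1.12 ± 0.13, with no overlap. UCHL1, an abundant neuronal deubiquitinase, differed by -0.58. MAP2 and SNAP25 were higher late, at 1.41 and 0.89, while TUBB3, a neuronal tubulin often used as a marker, was not called (-0.26).

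Of 63 listed synaptic genes 40 were tested, 16 were higher and 7 lower, against 17.9% and 20.9% of all genes, and the median was 0.31. As in the axon list, a gene could pass the filter through the late hairpin arrays alone, which favours higher members. CPLX1, a complexin that clamps vesicle fusion, read 1694, 1288 and 1568 at 48 h and 2246, 1286 and 1429 at 96 h against 93.9 and 155, a difference of 3.52 ± 0.26. GRIK2, a kainate receptor subunit, differed by 2.02 ± 0.19, and SLC17A7, the vesicular glutamate transporter of granule cells, by 1.67. ERC2, a scaffold of the presynaptic active zone, went the other way. It read 116, 81.4 and 87.1 at 48 h and 20.9, 56.0 and 65.0 at 96 h against 606 and 599, a difference of -2.93 ± 0.27. RIMS1, another active zone protein, differed by -1.95 ± 0.23, and RAB3B, a vesicle GTPase, by -2.0 ± 0.15.

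Transcription and signalling factors of neurogenesis and the cerebellar lineage were called higher for 17 and lower for 7 of 40 tested (70 listed). The shares of all genes were 17.9% and 20.9%, and the median of the list was 0.29. The same limit of the filter holds for this list and favours higher members. EBF1, a helix-loop-helix factor of differentiating neurons, read 270.4, 563 and 611 at 48 h and 642, 998 and 961 at 96 h against 46.5 and 61.0, a difference of 3.20 ± 0.36. DLL3, an inhibitory Notch ligand, read 818, 407 and 621 at 48 h and 1625, 869 and 780.2 at 96 h against 118 and 135, a difference of 2.49 ± 0.30. SOX11, a factor of newborn neurons, read 13.0, 21.5 and 74.0 at 48 h and 424, 362 and 427 at 96 h against 7.4 and 11.4. SOX11 was called at 96 h (3.93) and its 48 h difference was 0.98. NHLH1, a factor of postmitotic granule cell precursors, differed by 1.83 late and by -1.51 early. The largest negative difference was that of PROM1, the stem cell surface protein CD133, at -2.55 ± 0.22, followed by ZIC2, a granule cell precursor factor, at -1.69 ± 0.23. PROM1 and ZIC2 were already lower early, at -1.46 and -1.09.

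**Figure D2:**
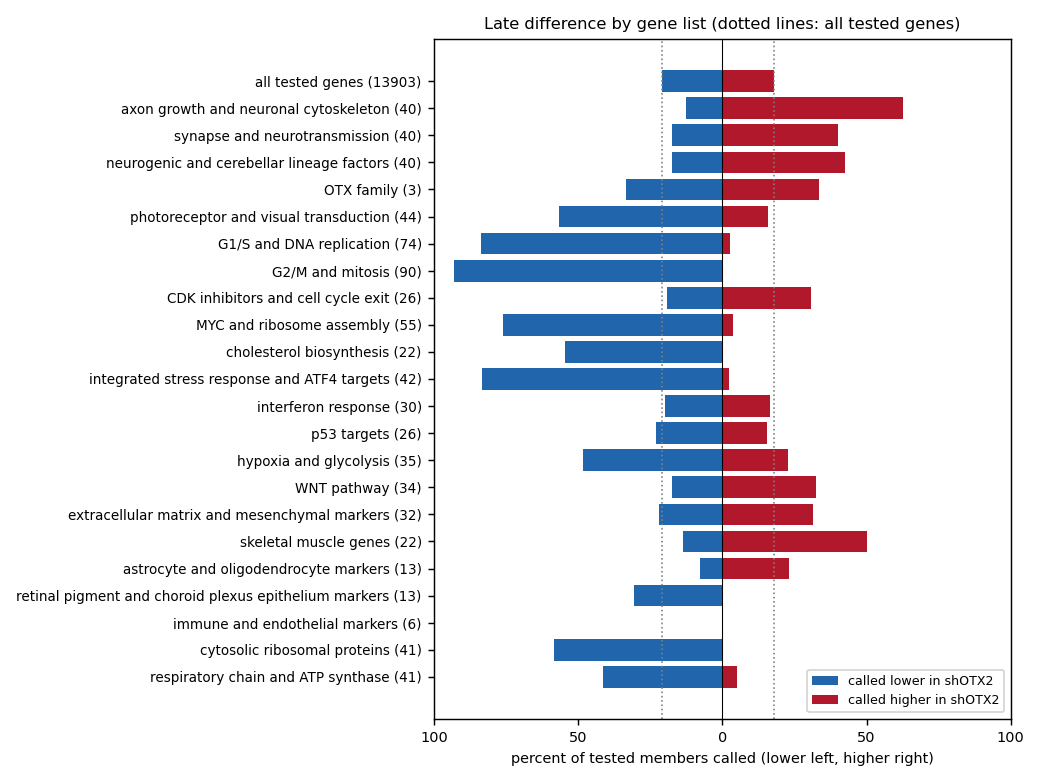
Percent of the tested members of each gene list that were called lower (blue, to the left) or higher (red, to the right) in the hairpin arm late, with the number tested in brackets. Dotted lines mark 20.9% lower and 17.9% higher over all 13903 genes. Mitotic, DNA replication and integrated stress response genes reach far to the left and axon growth genes to the right.

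Cell cycle genes were lower almost throughout. All 90 listed genes of G2/M and mitosis were tested, and 84 were called lower and 0 higher by limma (0 higher also at an unadjusted p under 0.05), against 20.9% and 17.9% over all genes. Their median late difference was -1.10, with -1.28, -1.07 and -0.98 in courses 1, 2 and 3, and their median early difference was 0.07. Across the 14 alternatives 81 to 86 of the 90 were lower. NCAPH, a condensin subunit, read 99.4, 94.0 and 103 at 48 h and 27.6, 65.4 and 69.2 at 96 h against 486 and 249.9, a difference of -2.06 ± 0.21 (adjusted p = 5.85e-07). MYBL2, a transcription factor that switches on mitotic genes, read 93.5, 53.4 and 69.2 at 48 h and 13.1, 30.4 and 25.0 at 96 h against 369.8 and 111, a difference of -1.95 ± 0.40. PLK1, a mitotic kinase, read 209, 184 and 117 at 48 h and 93.5, 48.5 and 76.0 at 96 h against 640.4 and 314, a difference of -1.89 ± 0.34. In all 3 genes the control read lower at 96 h than at 48 h, and in each the hairpin values stayed below the 96 h control. The proliferation marker MKI67 differed by -1.14, CDK1 by -1.11 and TOP2A by -0.93. The 6 mitotic genes that were not called were MAD2L1, KIFC1, INCENP, SGO2, GTSE1 and LMNB1, all with negative differences.

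In the control course the median change also went downward. From early to late the median mitotic gene changed by -1.66 in the hairpin arm and by -0.47 in the control. For the genes of G1/S and DNA replication these medians were -1.28 and -0.33. In both lists the median late difference was smaller than the change within the hairpin arm. Of 74 tested G1/S genes (76 listed) 62 were lower and 2 higher, against 20.9% and 17.9% of all genes, with a median of -0.98. CDT1, which licenses replication origins, read 418, 471 and 396 at 48 h and 132, 184 and 215 at 96 h against 1350 and 1136, a difference of -2.11 ± 0.15. GINS1 and GINS2, subunits of the replicative helicase, differed by -1.88 ± 0.20 and -1.95 ± 0.19, and in both the control read lower at 96 h than at 48 h. MCM2 differed by -1.78 and TYMS, the thymidylate synthase, by -1.54. The 2 higher genes were CDK6 (0.75 ± 0.16), a kinase of early G1, and CCNE2 (0.64 ± 0.19), a cyclin of S phase entry. Both lost the call when a gene's probe sets were averaged. CCNE1, CCND2 and E2F1 were not called, at -0.46, -0.28 and -0.49.

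Many mitotic promoters are known to carry a CHR element, with the letters TTTGAA, and CCAAT boxes, and many G1/S promoters an E2F site, here TTTCCCGC. These letters were searched on both strands of the 250 bases before the RefSeq start (GRCh38.p14), which was at hand for 75 of the 90 mitotic and 62 of the 74 replication genes. TTTGAA lay in 32 of 75 mitotic windows (42.7%), against 9.0% of the 11178 tested genes with a window and 13.6% of all 27305 windows. Of these 32 genes 30 were called lower, as were 84 of all 90 tested mitotic genes. CCAAT, counted separately, lay in 51 of 75 (68.0%) against 34.9% and 33.0%. TTTCCCGC lay in 11 of 62 replication windows (17.7%), against 2.1% and 1.4%. Of these 11 genes 10 were called lower, as were 62 of all 74 tested replication genes. Whether genes with a motif were lower more often than the rest of their list was not tested. The 2 most negative members that hold the motif are printed for each list, to show where the match lies. PLK1 and KIF4A, a chromosome kinesin with a difference of -1.63, stand for the mitotic list, and CDT1 and GINS2 for the replication list. Capitals mark the motif, or its reverse complement GCGGGAAA in CDT1 and GINS2, and a match is a description of letters and not a site shown to be bound.
PLK1, chr16:23678639-23678888, plus strand: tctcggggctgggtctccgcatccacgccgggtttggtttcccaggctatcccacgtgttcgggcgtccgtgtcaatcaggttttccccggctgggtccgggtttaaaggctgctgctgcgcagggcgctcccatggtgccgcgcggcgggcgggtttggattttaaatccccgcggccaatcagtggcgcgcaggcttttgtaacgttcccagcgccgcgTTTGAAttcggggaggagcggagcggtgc
KIF4A, chrX:70289854-70290103, plus strand: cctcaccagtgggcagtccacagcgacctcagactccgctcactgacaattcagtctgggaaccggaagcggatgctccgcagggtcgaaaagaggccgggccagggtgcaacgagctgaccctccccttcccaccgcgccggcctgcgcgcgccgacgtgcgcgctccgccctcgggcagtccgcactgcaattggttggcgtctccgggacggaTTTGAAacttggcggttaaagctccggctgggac
CDT1, chr16:88803539-88803788, plus strand: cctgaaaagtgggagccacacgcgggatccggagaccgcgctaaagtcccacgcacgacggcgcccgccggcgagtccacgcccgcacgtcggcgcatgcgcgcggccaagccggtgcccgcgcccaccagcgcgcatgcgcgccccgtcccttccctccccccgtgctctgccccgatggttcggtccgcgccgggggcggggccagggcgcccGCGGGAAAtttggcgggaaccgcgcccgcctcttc
GINS2, chr16:85688955-85689204, minus strand: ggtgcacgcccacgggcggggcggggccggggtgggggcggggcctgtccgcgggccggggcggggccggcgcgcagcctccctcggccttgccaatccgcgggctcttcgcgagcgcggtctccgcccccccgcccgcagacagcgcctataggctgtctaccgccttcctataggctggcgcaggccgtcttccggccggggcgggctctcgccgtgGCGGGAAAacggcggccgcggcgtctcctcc
The first base of the motif lay 29 bases before the start in PLK1, 34 in KIF4A, 35 in CDT1 and 31 in GINS2.

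Of 26 tested inhibitors of the cell cycle (34 listed) 8 were higher and 5 lower, against 17.9% and 20.9% of all genes. Without course 2 the 5 became 3, and the median of 0.16 turned to -0.06 without course 1. CDKN1A, the p21 inhibitor, read 332, 212 and 181 at 48 h and 553, 189 and 122 at 96 h against 52.7 and 54.0, a difference of 1.86 ± 0.51, and course 1 was the highest at each time. CDKN1B, the p27 inhibitor, differed by 0.76 and RB1 by 0.77. CCNG2 and GADD45G were higher by 1.06 ± 0.17 and 1.09 ± 0.28. MXD3, a MYC antagonist expressed in dividing precursors, was lower, at -1.12 ± 0.23. BTG3 and GAS2L3 were also lower, but each has a kept probe set of the opposite sign, and GAS2L3 lost its call without course 2 and with the replicate block. Targets of p53 were called higher for 4 and lower for 6 of 26 tested, against 17.9% and 20.9% of all genes, and 4 to 12 were lower across the 14 alternatives. TP53INP1 (1.96 ± 0.15) was higher, and TIGAR (-1.06 ± 0.12) and SESN2 (-1.35 ± 0.22) were lower. DDB2 was lower (-1.0 ± 0.31), but not without course 2 or course 3.

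MYC and the genes of ribosome assembly were lower. MYC read 4072, 2761 and 3192 at 48 h and 2869, 3104 and 3217 at 96 h against 7807 and 6767, without overlap, a difference of -1.19 after an early difference of -0.39. The paralogs went the other way. MYCL read 304, 247 and 233 at 48 h and 442, 309 and 346 at 96 h against 62.5 and 119, a difference of 1.65 ± 0.17, and MYCN read 24.7, 31.3 and 61.5 at 48 h and 89.4, 125 and 116 at 96 h against 6.9 and 14.9, a difference of 1.62 ± 0.26. Of the 55 tested genes of the list 42 were lower and 2 higher, against 20.9% and 17.9% of all genes. The 2 were MYCL and MYCN themselves. The median was -0.79, against -0.12 early. SRM, the spermidine synthase, read 509, 356 and 349 at 48 h and 363, 274 and 295 at 96 h against 989 and 799.5, a difference of -1.30 ± 0.18. DDX21, a nucleolar helicase, differed by -1.22, POLR1B, a subunit of RNA polymerase I, by -1.29 and NCL, nucleolin, by -0.54. CAD and RRP12 had the most negative values, -1.46 and -1.35, but 1 of 2 and 2 of 4 of their kept probe sets had the opposite sign.

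Genes of the integrated stress response, the ATF4 programme that supplies cells with amino acids and charged tRNA, were lower. Of 42 tested genes (46 listed) 35 were lower and 1 higher, against 20.9% and 17.9% of all genes. The median was -1.21, with medians of -1.09, -1.22 and -1.27 in courses 1, 2 and 3. Across the 14 alternatives 31 to 36 were lower. SLC7A5, the large neutral amino acid transporter, read 184, 208 and 226 at 48 h and 189.8, 222 and 254 at 96 h against 1785 and 2055, a difference of -3.08 ± 0.28 (adjusted p = 2.07e-07). SLC7A11, the cystine and glutamate exchanger, read 37.3, 75.3 and 69.9 at 48 h and 15.4, 138 and 133 at 96 h against 534 and 1014, a difference of -3.20 ± 0.60, and course 1 at 96 h stood well below courses 2 and 3. The bZIP factor CEBPB read 132, 85.1 and 112 at 48 h and 69.8, 85.3 and 131 at 96 h against 745 and 1467, a difference of -3.19 ± 0.26. PSAT1, an enzyme of serine synthesis, read 154, 128 and 157 at 48 h and 85.7, 248 and 252 at 96 h against 1132 and 1370, a difference of -2.84 ± 0.35. In these 4 genes no hairpin value reached the lower control value, and in each the control was higher at 96 h than at 48 h. PHGDH, the first enzyme of serine synthesis, differed by -2.01, ASNS, asparagine synthetase, by -2.09 and TRIB3, a pseudokinase target, by -2.60. Aminoacyl-tRNA synthetases were lower by less, with AARS1 at -1.22, GARS1 at -0.95 and NARS1 at -0.54. The mRNA of ATF4 itself differed by -0.41, and DDIT3 by -0.63. The higher member was DDIT4 (1.02 ± 0.31), an mTOR inhibitor, whose call was lost without course 2, and VEGFA, which is on the hypoxia list too, was lower, at -1.41 ± 0.19.

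All 3 components of the late difference contributed to this list. The median early difference was -0.39. By limma 6 genes were called lower and 0 higher, against 1.35% and 2.17% of all genes, and 19 were lower and 0 higher at an unadjusted p under 0.05. The 6 became 20 without course 1, 0 without course 2 (14 unadjusted), 1 without course 3, and 3 with the course as a replicate block. From early to late the median member changed by -0.50 in the hairpin arm and by 0.37 in the control. TRIB3 changed by -1.26 and 0.85 and ASNS by -0.70 and 0.52 in this way. For DDIT3 the changes were 0.33 and 0.66, both upward and larger in the control. The amino acid response element, with the letters TGATGNAA, lay in 6 of 36 windows of the list (16.7%). It lay in 1.7% of the windows of tested genes and 3.2% of all windows. All 6 genes were called lower, as were 35 of all 42 tested members. The windows of CHAC1, a glutathione-degrading enzyme, and of ASNS are printed because they are the 2 most negative members with the motif. In CHAC1 the capitals show its reverse complement.
CHAC1, chr15:40953221-40953470, plus strand: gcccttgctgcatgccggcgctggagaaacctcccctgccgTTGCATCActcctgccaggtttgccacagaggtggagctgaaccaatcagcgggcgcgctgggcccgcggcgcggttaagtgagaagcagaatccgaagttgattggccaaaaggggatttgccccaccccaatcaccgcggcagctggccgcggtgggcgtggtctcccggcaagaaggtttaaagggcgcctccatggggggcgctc
ASNS, chr7:97872409-97872658, minus strand: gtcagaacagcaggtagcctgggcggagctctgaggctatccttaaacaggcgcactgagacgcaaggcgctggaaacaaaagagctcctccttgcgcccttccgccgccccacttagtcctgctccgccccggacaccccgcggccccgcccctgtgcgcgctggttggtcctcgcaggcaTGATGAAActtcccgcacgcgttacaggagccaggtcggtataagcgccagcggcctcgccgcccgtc
The motif began 209 bases before the start in CHAC1 and 68 bases in ASNS.

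**Figure D3:**
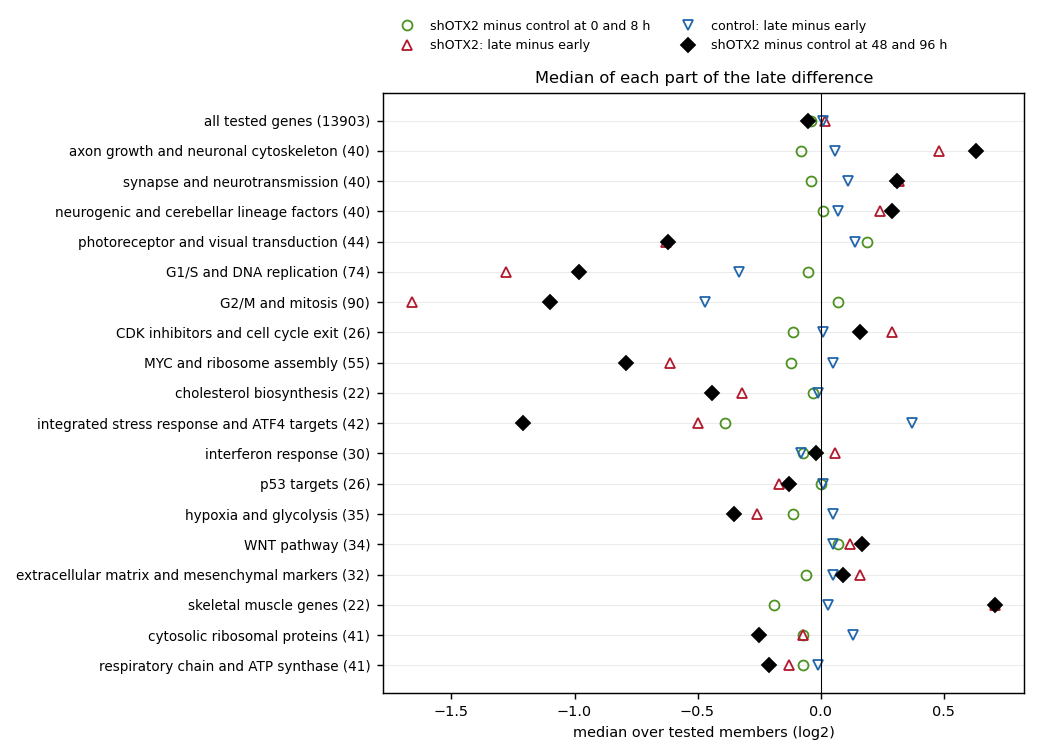
Median over the tested members of each list, in log2, for the early difference between the arms (green circles), the change from early to late in the hairpin arm (red triangles) and in the control (blue triangles), and the late difference (black diamonds). For mitotic genes the red triangle lies left of the black diamond and the control's own median change is -0.47, and for the stress response list the control's is 0.37.

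Photoreceptor and visual transduction genes, which many medulloblastomas of this kind express, were lower late. Of 44 tested genes (65 listed) 25 were lower and 7 higher, against 20.9% and 17.9% of all genes, with a median of -0.62. At 48 h 10 were lower and 6 higher, against 12.9% and 11.8% of all genes, and at 96 h 25 were lower and 4 higher, against 15.4% and 13% of all genes. GNGT2, the cone transducin gamma subunit, read 40.3, 37.5 and 53.9 at 48 h and 41.4, 59.3 and 85.8 at 96 h against 372 and 459.9, a difference of -2.68 ± 0.20. GNAT2, the cone transducin alpha subunit, read 21.0, 21.4 and 24.1 at 48 h and 8.3, 19.6 and 37.4 at 96 h against 117 and 176, a difference of -2.11 ± 0.26. TULP1, a photoreceptor trafficking protein, read 43.2, 26.4 and 18.4 at 48 h and 13.6, 16.5 and 20.6 at 96 h against 83.4 and 172, a difference of -1.85 ± 0.22. None of the hairpin values of these 3 genes reached the control. RCVRN, recoverin, had differences of 0.01 at 48 h and -1.21 at 96 h. The higher members included transcription factors. NRL, the rod determination factor, read 326, 220.5 and 246 at 48 h and 648, 388 and 379.6 at 96 h against 42.1 and 75.1, a difference of 2.32 ± 0.33, after an early difference of 1.57, and its late minus early difference of 0.75 was not called. PRDM1, a repressor of bipolar cell fate, differed by 2.09 ± 0.25.

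This list started from the other side. Early, 11 of the 44 were higher and 0 lower by limma (2 lower at an unadjusted p under 0.05), against 2.17% and 1.35% of all genes. The early median was 0.19. Without course 1, 2 and 3 the higher count was 15, 1 and 4, and it was 6 with the course as a replicate block. From early to late the median changed by -0.63 in the hairpin arm and by 0.14 in the control. GUCA1A, a guanylate cyclase activator, differed by 0.90 early and -0.61 late. The letters TAATCC, the core recognised by OTX2 and CRX type homeodomains, lay in 6 of 36 windows (16.7%). They lay in 4.1% of the windows of tested genes and 5.7% of all windows. Of the 6 genes 4 were called lower late, as were 25 of all 44 tested members. PDE6A and PDE6C, the catalytic phosphodiesterase subunits of rods and cones, are the 2 most negative members with the motif, at -1.56 and -1.31.
PDE6A, chr5:149944794-149945043, minus strand: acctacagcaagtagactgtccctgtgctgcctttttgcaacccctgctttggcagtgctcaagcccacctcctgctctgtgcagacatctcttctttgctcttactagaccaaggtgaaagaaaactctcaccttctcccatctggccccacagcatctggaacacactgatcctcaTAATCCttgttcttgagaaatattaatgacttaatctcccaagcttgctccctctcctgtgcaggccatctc
PDE6C, chr10:93612287-93612536, plus strand: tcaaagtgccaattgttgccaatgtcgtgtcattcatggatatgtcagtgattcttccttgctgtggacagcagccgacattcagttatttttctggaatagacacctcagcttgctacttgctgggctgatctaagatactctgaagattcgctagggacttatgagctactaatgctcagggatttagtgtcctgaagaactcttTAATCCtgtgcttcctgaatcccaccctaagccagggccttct
The motif began 72 bases before the start in PDE6A and 43 bases in PDE6C.

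Some late differences were already present early. Of the 490 early calls, 302 higher and 188 lower, 245 were also late calls of the same sign (50% of the early and 4.5% of the late calls). Of these 149 were higher and 96 lower. Another 71 early calls were late calls of the opposite sign. Of all genes 17.9% were called higher and 20.9% lower late, and no test compared the overlaps with these shares. The 2 sets of arrays share the courses but no array. COL11A1, a fibrillar collagen, read 157, 223 and 220.3 at 48 h and 33.4, 88.2 and 74.5 at 96 h, while the control read 0.9 and 1.4. At 0 h the hairpin arrays read 354, 371 and 384 and the control 1.4, and the difference was 4.44 early and 2.91 late. ZNF22, a zinc finger protein, was the reverse. It read 3.2, 11.3 and 3.9 at 48 h and 24.4, 14.8 and 16.0 at 96 h against 213 and 224, and 0.5, 0.7 and 12.5 against 215 at 0 h, with differences of -3.10 late and -3.51 early. The late minus early difference of ZNF22 was not called (adjusted p = 0.465).

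In other standing genes the gap widened. TXNIP, an inhibitor of thioredoxin and glucose uptake, read 1957, 2042 and 2350 at 48 h and 1250, 1648 and 1454 at 96 h against 264 and 100.3. Its difference was 3.29 ± 0.14 late and 0.95 early, and the late minus early difference was called. SCD5, a fatty acid desaturase, differed by 3.11 ± 0.20 late and 1.19 early. TIMP2, a metalloproteinase inhibitor, PAPSS2, a sulfate donor synthase, and PCDHB5, a protocadherin, differed by 2.77, 2.59 and 2.56 late and by 0.89, 0.97 and 0.99 early. On the lower side, TTC12, a factor of ciliary dynein assembly, read 2.2, 2.7 and 13.4 at 48 h and 1.2, 1.5 and 11.0 at 96 h against 600.5 and 97.7, and 200.2, 208 and 223 against 606 at 0 h. The difference of -3.67 ± 0.22 thus rests on hairpin values near the bottom of the scale, and on control arrays that differ widely from each other. CHAC1, EIF4EBP1, a translation repressor, and TSPO, a mitochondrial cholesterol binding protein, were lower late, at -2.60, -2.47 and -2.39, and early, at -1.26, -0.81 and -0.89. The early calls of these genes depended on single courses. Without course 2 the early call was lost for TTC12, PROM1, PAPSS2, PCDHB5, TIMP2, CHAC1, EIF4EBP1 and TSPO, without course 3 for SCD5, PCDHB5, TIMP2, CHAC1, EIF4EBP1 and TSPO, and with the replicate block for CHAC1, EIF4EBP1 and TSPO. COL11A1, ZNF22 and TXNIP kept both calls under all 14 alternatives.

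Other genes crossed over. PPP1R17, a phosphatase inhibitor of cerebellar Purkinje cells, read 49.0, 54.7 and 133 against 254 at 0 h, and 3085, 3339 and 3937 at 48 h and 4711, 5156 and 4536 at 96 h against 295 and 441 late. It passed from -1.63 to 3.44, and all 6 late hairpin values lay far above both control values. FNDC5, the precursor of irisin, passed from -1.08 to 3.53 and TNNC2, the troponin C of fast muscle, from -0.65 to 3.44. TIMP3, a metalloproteinase inhibitor, went the other way. It read 1761, 1226 and 545 against 342 at 0 h and 109.5, 64.7 and 65.5 at 48 h and 25.9, 23.5 and 47.4 at 96 h against 351.2 and 414 late, and passed from 1.46 to -2.58. CA2, a carbonic anhydrase, passed from 1.49 to -2.09 and COL4A3, a basement membrane collagen, from 1.29 to -1.95, with 1 of its 5 kept probe sets of the opposite sign late. The late minus early difference was called for all 6, which their choice by opposite early and late calls had made likely beforehand. Their early calls were lost without course 2, and for COL4A3 and TNNC2 also without course 3, and for TNNC2 with the replicate block.

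**Figure D4:**
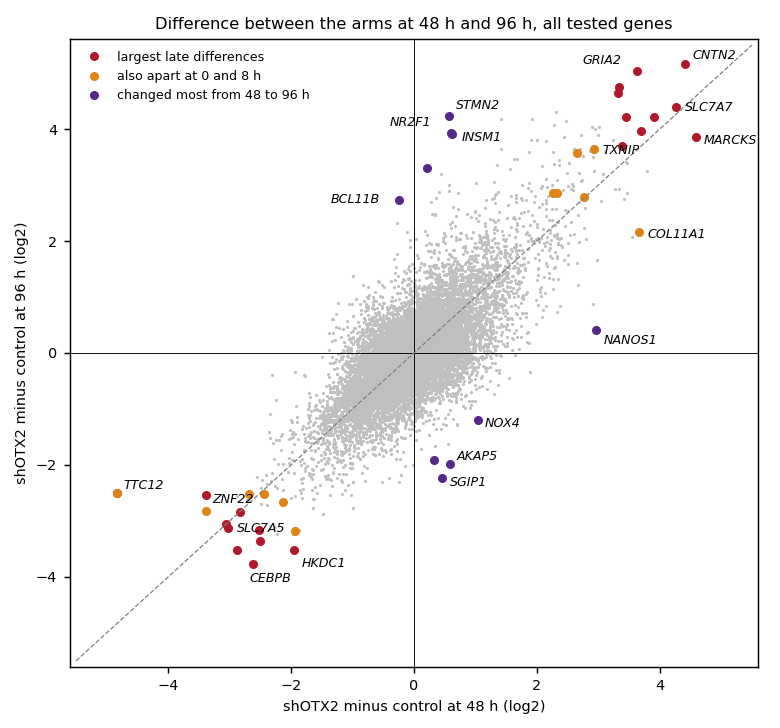
Difference between the arms at 48 h (x axis) and at 96 h (y axis), in log2, for all 13903 tested genes. The dashed line marks equal differences. CNTN2, GRIA2 and SLC7A7 lie far up on both axes, CEBPB and SLC7A5 far down, and STMN2, NR2F1 and INSM1 lie near 0.6 at 48 h and near 4 at 96 h.

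Muscle genes and markers of other cells were followed as well. Of 22 tested skeletal muscle genes (34 listed) 11 were higher and 3 lower, against 17.9% and 20.9% of all genes, with a median of 0.71. In this list too a gene could pass the filter through the late hairpin arrays alone, which favours higher members. CHRNA1, the muscle acetylcholine receptor subunit, read 888, 532 and 617 at 48 h and 1154, 879 and 840.0 at 96 h against 46.1 and 74.5, a difference of 3.43 ± 0.20. TNNC2 read 217, 210.4 and 217 at 48 h and 269, 256 and 223 at 96 h against 13.1 and 1.9, a difference of 3.44 ± 0.16, and NEB, the giant filament protein nebulin, read 109.8, 146 and 405 at 48 h and 1401, 1334 and 1174 at 96 h against 20.8 and 58.5, a difference of 3.31 ± 0.33. The summed signal of 33 muscle genes was 3956 to 5570 in the late hairpin arrays and 1884 to 2059 in the late control. It was 1800 to 1887 in the early hairpin arrays and 1692 to 1914 in the early control. The sums of the late hairpin arrays thus stood apart and those of the other groups overlapped. A sum is weighted toward its brightest genes, and CHRNA1, TNNC2 and NEB are part of it, so it does not speak for all 33 genes. The defining factor MYOD1 was at most 4.3 and MYF5 at most 14.2 on all late arrays, while MYOG was 5.7 to 47.3 in the hairpin arm and 2.9 to 4.6 in the control. MYL4, an atrial and embryonic myosin chain, was lower, at -1.57 ± 0.12.

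Extracellular matrix and mesenchymal genes were called higher for 10 and lower for 7 of 32 tested, against 17.9% and 20.9% of all genes, with a median of 0.09, and their summed signal overlapped between the arms (9888 to 12958 against 8910 to 11652). SPARC, a matrix glycoprotein, read 1141, 1123 and 1186 at 48 h and 1674, 1241 and 1246 at 96 h against 165 and 198, a difference of 2.69 ± 0.20 after an early difference of -1.16. ZEB2 and SNAI2, repressors of epithelial genes, were higher by 2.97 ± 0.28 and 2.16 ± 0.22, and the collagens COL4A3 and COL4A4 were lower, at -1.95 and -1.79. Astrocyte and oligodendrocyte markers were higher for 3 and lower for 1 of 13 tested, against 17.9% and 20.9% of all genes, with a median of -0.07. The higher ones were GLUL (0.75 ± 0.08), OLIG1 (1.68 ± 0.25) and OLIG2 (1.03 ± 0.27), and the lower one was SLC1A3 (-1.50 ± 0.21), the glutamate transporter of astrocytes, while GFAP was at most 5.6 on every late array. The summed signal of 19 such markers was 4581 to 5407 in the hairpin arm and 3105 to 3959 in the control, without overlap. This sum too is weighted toward its brightest genes, and its part in other results was not tested. Of 13 tested markers of retinal pigment and choroid plexus epithelium 4 were lower and 0 higher by limma (0 higher unadjusted too). The shares of all genes were 20.9% lower and 17.9% higher, and no test compared them with this short list. Across the alternatives 3 to 5 of the 13 were lower and 0 to 1 higher. The 4 lower markers included AQP1 (-1.0 ± 0.29), a water channel that had been higher early by 1.82. The late call of AQP1 was lost without course 2. The summed signal of 21 such markers was 1140 to 1990 in the hairpin arm and 1437 to 1589 in the control, and 2340 to 2845 in the early hairpin arrays. Of 6 tested markers of immune and endothelial cells limma called 0 for the late difference, with 0 at an unadjusted p under 0.05. At 96 h alone 1 of the 6 was called higher, against 13% of all genes, and for 1 the difference rose from 48 to 96 h, against 0.633%. The sums of this list overlapped (152 to 191 against 166 to 196).

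WNT pathway genes were higher for 11 and lower for 6 of 34 tested, against 17.9% and 20.9% of all genes. FZD1, a WNT receptor, read 437, 396 and 570.2 at 48 h and 877, 722 and 689 at 96 h against 64.1 and 79.3, a difference of 2.80 ± 0.20, and WNT5A, a ligand, and ROR1, its receptor, were higher by 1.46 ± 0.17 and 1.61 ± 0.17. The receptors FZD5 and FZD10 were lower, at -1.31 ± 0.10 and -1.78 ± 0.17. The interferon response list had 5 higher and 6 lower of 30 tested (60 listed) and a median of -0.02, and these shares are near the 17.9% and 20.9% of all genes. USP18, an inhibitor of interferon signalling, read 2000, 2265 and 1921 at 48 h and 1484, 960.2 and 1069 at 96 h against 189 and 138, a difference of 3.13 ± 0.39. IFI44L and IFI44 were higher by 2.90 ± 0.25 and 2.03 ± 0.19, and IFIH1, a sensor of double-stranded RNA, was lower, at 3.2, 6.4 and 7.4 at 48 h and 4.6, 8.1 and 10.4 at 96 h against 79.0 and 112, a difference of -2.29 ± 0.21. IFITM2 and IFITM3, membrane proteins that block virus entry, were lower, at -1.54 ± 0.39 and -1.50 ± 0.26.

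Genes of hypoxia and glycolysis were lower for 17 and higher for 8 of 35 tested, against 20.9% and 17.9% of all genes, with a median of -0.35. PFKP, a glycolytic enzyme, was the most negative called member, at -1.9, with values from -2.0 to -0.55 across the fit and its 14 alternatives. ERO1A, an oxidase of protein folding, was lower too, at -1.38 ± 0.15. SLC2A3, a glucose transporter, and BNIP3L, a mitophagy receptor, were higher by 1.18 ± 0.14 and 1.12 ± 0.11. Genes of cholesterol synthesis were lower for 12 and higher for 0 of 22 tested by limma (1 higher unadjusted), against 20.9% and 17.9% of all genes. Their median was -0.44. DHCR7, the last enzyme of the pathway, read 84.0, 55.6 and 73.9 at 48 h and 64.3, 59.5 and 67.9 at 96 h against 216 and 167, a difference of -1.31 ± 0.20. In the respiratory chain 17 of 41 tested were lower and 2 higher, against 20.9% and 17.9% of all genes, with a median of -0.21 and CYC1, cytochrome c1, at -1.02 ± 0.24. The 17 and 2 became 8 and 4 after quantile normalization and 10 and 1 without course 3.

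For the cytosolic ribosomal proteins the calls at single times were mostly those of 48 h, where the control is 1 array. Of 41 tested genes (62 listed) 24 were lower and 0 higher late by limma (0 higher unadjusted too), against 20.9% and 17.9% of all genes. The median was -0.25. At 48 h 22 were lower, against 12.9% of all genes, and at 96 h 1 was, against 15.4%. The control array of 48 h had the highest median of this list among all 24 arrays, 13.12 in log2(signal + 16). Hairpin courses 1, 2 and 3 had 12.76, 12.85 and 12.79 at 48 h. At 96 h the control had 12.76 and the hairpin courses 12.65, 12.69 and 12.64, a smaller gap in the same direction. RPS18 read 6853, 7627 and 7022 at 48 h and 6483, 6787 and 6373 at 96 h against 11145 and 7539, and the 48 h control stood out by far. After quantile normalization 5 of the 41 were lower and 4 higher, and the median was -0.02. Without course 1 13 were lower, without course 3 15 and without course 2 32.

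The 48 and 96 h comparisons were also set side by side. At 48 h 3426 genes (24.6%) were called and at 96 h 3952 (28.4%). The 48 h count was 4956, 2258 and 2154 without course 1, 2 and 3. In the fit with all courses 2148 genes had the same sign at both times, which is 62.7% of the 48 h and 54.4% of the 96 h calls, and 32 had opposite signs. A test of the change from 48 to 96 h called 289 genes (2.08%), 88 upward (0.633%) and 201 downward (1.45%). That count was 894 with the course as a replicate block and 452, 0 and 51 without course 1, 2 and 3. The 0 was limma's count after adjustment, with 1421 genes at an unadjusted p under 0.05. The share upward was 30.4%, and 16.6% when array medians were centred, which moved the median of all genes from 0.03 to -0.08.

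The 5 genes whose difference grew most from 48 to 96 h came first. STMN2, a microtubule regulator of growing axons, read 21.0, 37.0 and 123 at 48 h and 645, 709 and 979 at 96 h against 27.8 and 25.8. The hairpin arm changed by 3.59 and the control by -0.07, and the difference between the arms changed by 3.66. INSM1, a zinc finger factor of neuroendocrine and newborn neuronal cells, read 24.2, 17.4 and 60.1 at 48 h and 443, 470.4 and 450.4 at 96 h against 14.4 and 15.3, a change of 3.29. NR2F1, an orphan nuclear receptor of neural patterning, read 23.9, 28.8 and 43.4 at 48 h and 264, 281 and 225 at 96 h against 15.1 and 1.9, a change of 3.32. SPAG6, a ciliary central pair protein, and BCL11B, a zinc finger factor of corticospinal neurons, changed by 3.10 and 2.98. All 3 courses were higher at 96 h than at 48 h in each of the 5 genes.

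For the genes whose difference fell, the control arrays weighed more. The change in the control was larger than that in the hairpin arm in 132 of the 201 downward genes (65.7%) and in 38 of the 88 upward genes (43.2%). SGIP1, an endocytosis adaptor, read 13.5, 9.2 and 16.9 at 48 h and 1.2, 13.4 and 5.8 at 96 h against 5.1 and 89.1, and the control changed by 2.32 and the hairpin arm by -0.38. AKAP5, a kinase anchoring protein, read 15.2, 14.5 and 10.8 at 48 h and 11.0, 17.0 and 1.9 at 96 h against 3.7 and 82.9, with changes of 2.33 and -0.23. PARD6B, a cell polarity protein, read 456, 456 and 487 at 48 h and 243, 294 and 409 at 96 h against 368 and 1197, with changes of 1.66 and -0.57. Each of these 3 values depends on the 96 h control array. NANOS1, an RNA-binding protein, changed by -1.53 in the hairpin arm and by 1.03 in the control. It read 2937, 2400 and 1901 at 48 h and 851, 795 and 789 at 96 h against 289.8 and 606. NOX4, an NADPH oxidase, changed by -1.16 and 1.07 and crossed from 1.04 to -1.19. Without course 2 none of the 10 genes kept its call for this change, and without course 3 BCL11B, SGIP1 and NOX4 lost theirs. When the fit held no other groups STMN2, INSM1, SPAG6, BCL11B, SGIP1 and AKAP5 lost it, with a pseudocount of 1 STMN2, INSM1, BCL11B and SGIP1, and with probe sets averaged SGIP1, AKAP5 and PARD6B. SGIP1 lost it in 10 of the 14 alternatives.

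**Figure D5:**
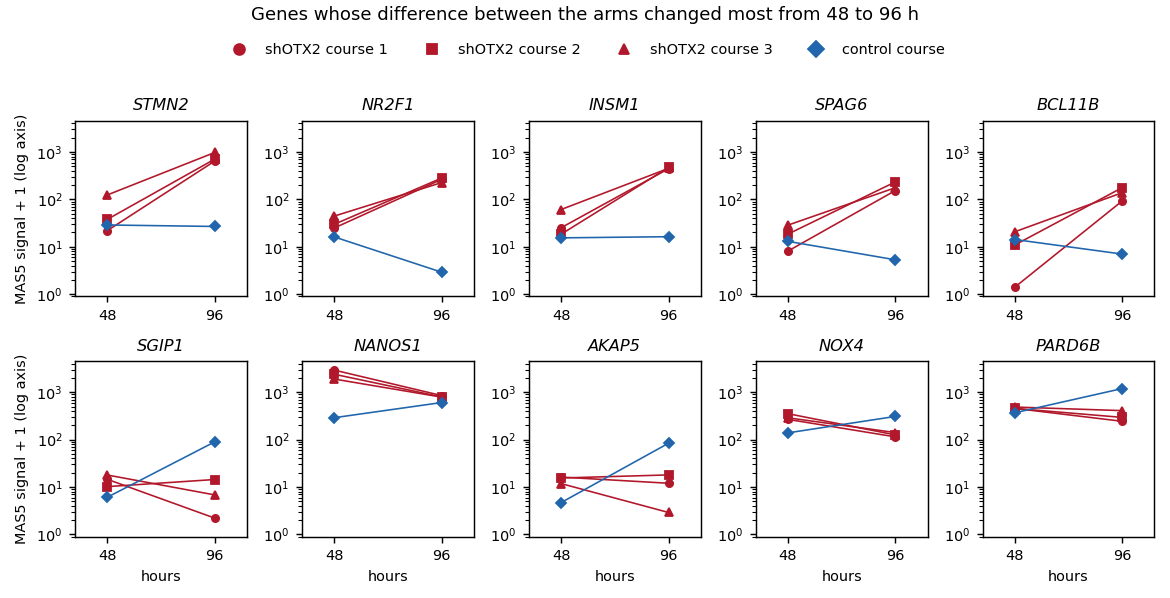
MAS5 signal plus 1 on a log axis at 48 and 96 h for the 10 genes whose difference between the arms changed most, with lines joining the arrays of a course, hairpin courses in red and the control in blue. In the upper row the red lines climb, as for STMN2 from 21.0 to 645 in course 1. In the lower row the blue line climbs, as for SGIP1 from 5.1 to 89.1.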

How the data were processed

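The deposited values are MAS5 signals, a linear array intensity per probe set, which the authors made with GCOS and MAS5 per the submitters' processing notes. Each deposited array had been scaled to a common level (trimmed means of 100.011 to 100.014), so a general change in RNA per cell cannot be seen. Precision is set by how many arrays there are.

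Probe sets with 1 gene symbol in the platform annotation (41097 of 54675) were used. Another 1801 had several symbols, 11777 were not listed, and 62 control probe sets were left out. A probe set was kept where its signal was above the array median in at least 3 arrays, and a gene took its brightest kept probe set. With limma 3.58.1 in R 4.3.3, group means of log2(signal + 16) were fitted for 12 groups (arm by time) with a mean-variance trend and 12 residual degrees of freedom, and p-values were adjusted by Benjamini-Hochberg over 13903 genes. The script was tested on simulated data. Same-numbered hairpin arrays deviated together, with correlations of 0.157 to 0.556 over 45 pairs, and the labels give each number as a time course. The control has no number, so the course entered as a random block in an alternative.

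Named genes were OTX2, the largest changes by fixed rules (10 each way late, 6 each way also called early with the same sign, 3 each way with opposite signs early and late, 5 each way from 48 to 96 h) and up to 3 each way from each gene list. The arrays compared, the gene lists and the rules were chosen with earlier results of these data known. Further list members were named after their values were seen. Lists are described by counts and medians beside those of all genes, without a test. Promoter windows are from RefSeq.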

Additional observations from a re-analysis of the deposited data

Results flagged for a closer look

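The difference between the arms at 96 h differed from that at 48 h for 289 genes in the test of that change. The 5 largest changes upward were those of STMN2 (3.66), NR2F1 (3.32), INSM1 (3.29), SPAG6 (3.10) and BCL11B (2.98), and the 5 largest downward were those of SGIP1 (-2.70), NANOS1 (-2.56), AKAP5 (-2.55), NOX4 (-2.23) and PARD6B (-2.23), all in log2. Each rests on 1 control array per time, and limma called 0 genes without course 2 (1421 at an unadjusted p under 0.05).

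The late and the early difference differed from each other for 3130 genes. Among genes called both early and late with opposite signs (71 in all), the 3 largest each way by late difference had a late minus early difference of 5.07 for PPP1R17, 4.61 for FNDC5, 4.09 for TNNC2, -4.04 for TIMP3, -3.58 for CA2 and -3.24 for COL4A3. The 71 were among 490 early calls, and of all genes 17.9% were called higher and 20.9% lower late. The early calls of all 6 named genes were lost without course 2.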

How the results depend on the processing

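Of 166 gene results 126 kept direction and call under all 14 alternatives, and no gene result reversed in the alternatives that were run. Among the gene lists the median of the cell cycle inhibitors reversed, to -0.064 without course 1, and was 0.159 without course 3. Testing every kept probe set, which are more features than genes, called 9401 late, 5643 at 48 h, 6565 at 96 h and 4988 for late minus early. The early count was 277 with the course as a random replicate block, 936 with the actin ratio as a covariate, 96 when only the groups compared were fitted, and 72 to 2312 when 1 course was left out. The count for 96 h minus 48 h was 133 with a gene's probe sets averaged, 894 with the replicate block, 811 with the actin ratio, 30 with only the groups compared, and 0 to 452 when 1 course was left out. Leaving out 1 course gave 2154 to 4956 at 48 h, 1900 to 4053 for late minus early and 4191 to 6618 late. The replicate block called 4910 genes late. Except where a value or the number of features or arrays shows it, the cause was not tested. Dim genes, such as TTC12, SGIP1 and AKAP5 in the hairpin arm, have signals near the bottom of the scale, where differences depend on the pseudocount. The control arm has 1 array per time, and line, course and hairpin cannot be told apart in the direct comparison.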
